A study of Mus musculus with 10 samples.

Results

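The genes described here are 9 genes of microglia, the resident macrophages of the brain: C1qa, C1qb and C1qc, which encode the chains of complement C1q, the protease gene Ctss, the receptor genes Cx3cr1, P2ry12, Csf1r and Trem2, and Tmem119. They were chosen by name from the 22046 protein-coding genes in the tables, and all 9 were present. Total RNA and ribosome footprints, the stretches of mRNA covered by translating ribosomes, had been sequenced from cerebellum to ask what loss of the clock factor Bmal1 does to expression and translation there. The knockout mice were Bmal1-/- and the wild-type mice were their Bmal1+/+ littermates, both bred from heterozygous parents (C57BL/6 background) and kept under 12 h light and 12 h dark. The deletion is constitutive, so that every cell type of the animal lacks the factor and a difference in microglial genes need not arise within microglia. The labels give no age, sex or time of day. Values were available for both kinds of library from knockouts 1 and 3 and wild types 2 and 3, which makes 8 of the series' 10 libraries, so each comparison set 2 animals against 2.

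Microglia enter the brain from the embryonic yolk sac and maintain themselves there through signals such as the CSF1 receptor. They survey the tissue with motile processes, clear dying cells and debris, and are the main source of C1q in the brain. C1q is the recognition part of the classical complement pathway and can tag synapses for removal. In the cerebellum microglia are sparse compared with the very numerous granule neurons, and they differ in shape and density from those of the forebrain.

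Recovered reads came to 38.94 M and 43.19 M in the knockout total RNA libraries and to 25.58 M and 27.75 M in the wild-type ones. The footprint libraries held 40.97 M and 30.09 M reads in the knockout, against 38.05 M and 27.70 M in the wild type. Both knockout total RNA libraries were thus deeper than both wild-type ones, and depth and genotype cannot be told apart there. The targeted gene, listed as Arntl, had 123.7 and 106.9 RPKM of footprints in the knockout, against 257.6 and 294.7 RPKM in the wild type, while its total RNA was 267.4 and 272.2 RPKM in the knockout, against 178.8 and 179.4 RPKM in the wild type. Which exons the deletion removes is not given in the labels, so its total RNA does not check the genotype. RPKM are reads scaled by a length and by library depth, and RPM, used below for recovered reads, are reads scaled by depth alone. Hindbrain Hox genes stood apart in wild type 2: Hoxa5 had 1.39 and 1.57 RPKM in knockout total RNA, against 40.6 RPKM in wild type 2 and 0.727 RPKM in wild type 3. Genes of the choroid plexus, the epithelium that makes cerebrospinal fluid, were lowest in wild type 3. Their summed total RNA was 1790 and 2118 RPM in the knockout, against 849 RPM in wild type 2 and 52.6 in wild type 3. Markers of neighbouring tissue thus differed between the wild-type libraries, and the choroid plexus sum also lay higher in both knockout libraries than in both wild-type ones. Leaving out a library does not separate that difference from genotype. The limma fits of single genes were also computed without each library or animal in turn. Medians, sums, levels, ratios between genes, correlations and the counts of the other gene lists were not.

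In total RNA the 9 microglial genes lay lower in the knockout, by 12% to 35% of the wild-type mean. Both knockout libraries were below both wild-type libraries for 9 of 9 genes, as they were for 30.3% of all 12690 genes tested, and 9 of 9 differences were negative, as were 53.3% of all. By limma on log2(RPKM + 1), with a Benjamini-Hochberg adjusted p under 0.05 over all genes as the threshold for a call, C1qb and Ctss were called lower, 2 of 9, where 1.61% of all genes were called lower. By limma-voom on recovered reads 5 of 9 were called lower, C1qa, C1qb, Ctss, P2ry12 and Csf1r, where 6.76% of all genes were. That count was 0 of 9 without knockout 1, 1 without knockout 3 (Ctss), 5 without wild type 2 (C1qc in place of C1qa) and 4 without wild type 3 (all but C1qa). The median log2 difference of the 9 genes was -0.36, beside a median over all genes of -0.02 with a 5th percentile of -0.44 and a 95th of 0.46. In footprints 0 of 9 were called by either tool, where 0.233% of all genes were called by limma and 1.64% by limma-voom. An unadjusted p under 0.05 by limma was reached by 3 of 9, beside 1294 of all 12447 genes tested. There 8 of 9 differences were negative, beside 55.2% of all genes, and both knockout libraries were below both wild-type ones for 5 of 9, beside 22.6%. Tmem119, with footprint means of 0.997 RPKM in the knockout and 1.18 RPKM in the wild type, passed the filter of a mean of 1 RPKM only through the wild type. The 9 genes were chosen as markers of 1 cell type and are not independent of each other. In these bulk libraries fewer microglia, less RNA of these genes per microglial cell and a change in other macrophages cannot be told apart.

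**Figure D1:**
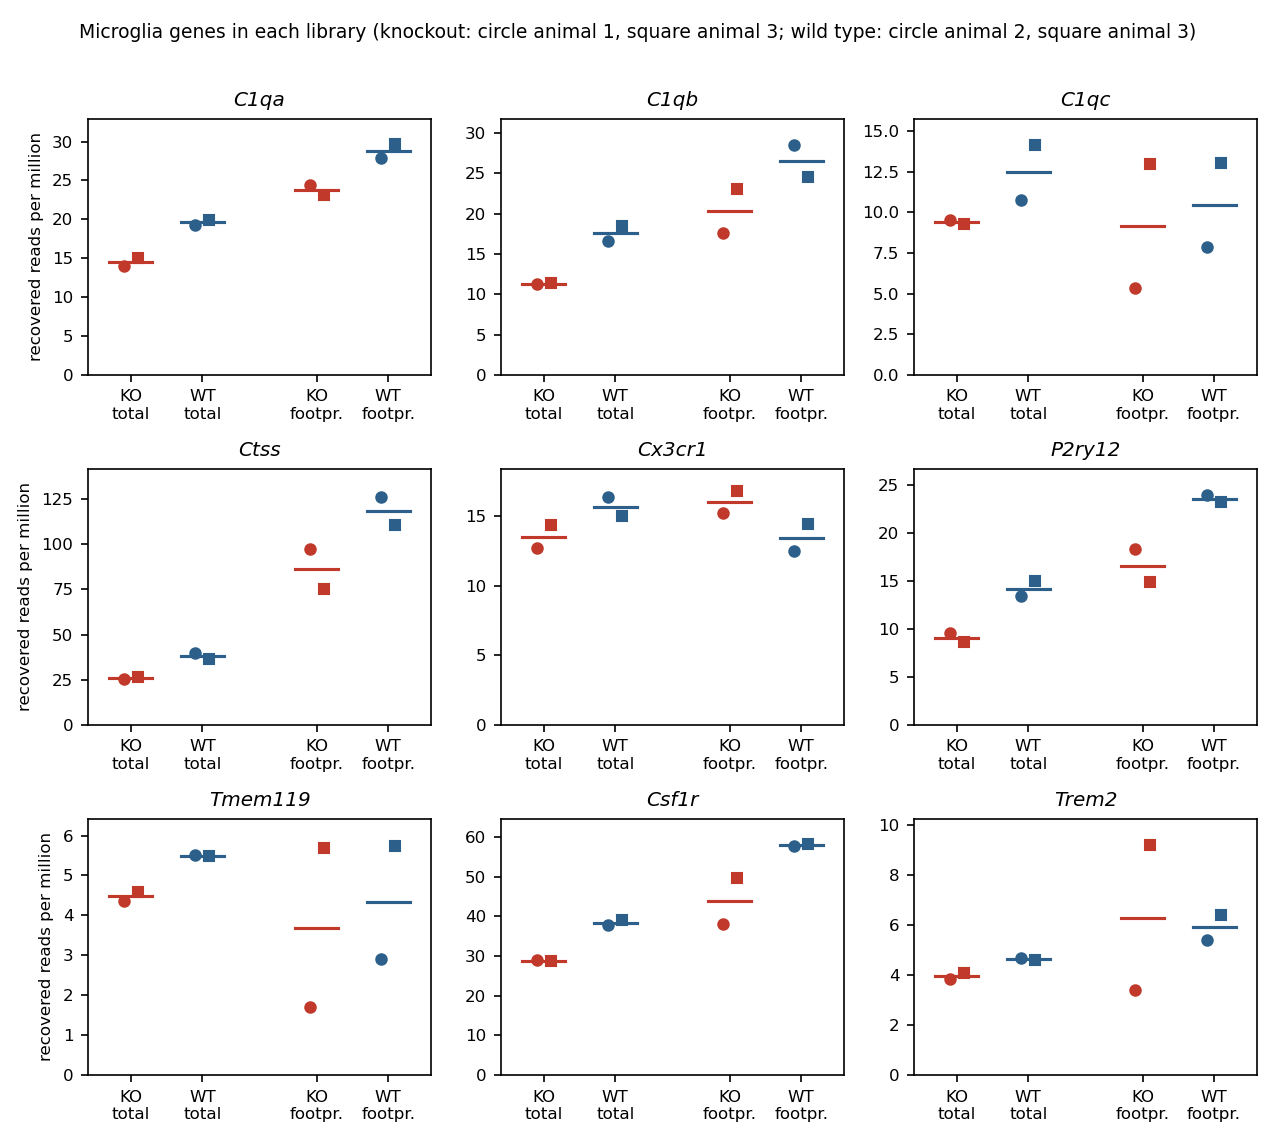
Recovered RPM (vertical axis, from 0) for each of the 9 genes in total RNA and in footprints of knockout (KO, red) and wild-type (WT, blue) cerebellum. Each point is 1 library and each bar the mean of 2. In total RNA the red points lie below the blue points in all 9 panels, while in footprints C1qc, Tmem119 and Trem2 spread widely within a genotype and Cx3cr1 is higher in the knockout.

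The genes of the C1q chains lie side by side on the minus strand of chromosome 4, within 18.7 kb. In mm10 with GENCODE M21, C1qb (ENSMUSG00000036905) spans chr4:136880129-136886187, C1qc (ENSMUSG00000036896) spans chr4:136889804-136893065 and C1qa (ENSMUSG00000036887) spans chr4:136895917-136898803. Polypeptides of all 3 genes are needed to build C1q, so that the 3 are usually made together. The 250 bases upstream of the RefSeq start of C1qb (GRCm38.p6, chr4:136886201-136886450, minus strand) are shown because C1qb is the C1q gene called by both limma and limma-voom. Capitals mark GAGGAA, the purine-rich core that PU.1, the lineage factor of macrophages and microglia, recognises.
C1qb promoter: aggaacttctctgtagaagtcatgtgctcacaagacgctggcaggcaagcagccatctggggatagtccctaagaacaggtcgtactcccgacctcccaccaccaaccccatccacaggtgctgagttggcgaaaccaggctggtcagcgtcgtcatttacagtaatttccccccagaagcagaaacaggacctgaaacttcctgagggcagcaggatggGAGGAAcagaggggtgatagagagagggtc

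C1qb total RNA was 11.7 and 11.8 RPKM in the knockout, against 16.9 and 19.0 RPKM in the wild type. The groups did not overlap, and the knockout mean was 0.653 of the wild-type mean. C1qb fell by limma, with a log2 difference of -0.57 (SE 0.11, adjusted p = 0.0453), and by limma-voom with one of -0.64 (adjusted p = 0.00691). The limma call was lost without any 1 of the 4 libraries, with adjusted p between 0.0554 and 0.255, while the difference itself stayed between -0.65 and -0.49. C1qa total RNA was 1.27 and 1.36 RPKM in the knockout, against 1.71 and 1.80 RPKM in the wild type. Its RPKM are low although it is well covered, with 543 and 647 reads in the knockout and 493 and 554 reads in the wild type, so the added 1 RPKM shrinks its log2 difference to -0.25 (limma, SE 0.13, adjusted p = 0.328). On recovered reads the difference was -0.44, and C1qa fell by limma-voom (adjusted p = 0.0465), a call that was lost without any 1 library (adjusted p 0.0580 to 0.491). C1qc total RNA was 25.3 and 24.7 RPKM in the knockout, against 28.0 and 37.3 RPKM in the wild type. The groups did not overlap, but the wild-type animals differed from each other by more than wild type 2 differed from the knockout. The log2 difference of C1qc was -0.36 with a 95% interval from -0.72 to -0.004 (limma adjusted p = 0.223, limma-voom adjusted p = 0.144). It was -0.16 without wild type 3 and -0.56 without wild type 2, where limma-voom called it lower (adjusted p = 0.0333).

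Footprints of the C1q genes gave no call. C1qa footprints were 2.39 and 2.25 RPKM in the knockout, against 2.74 and 2.92 RPKM in the wild type, and C1qb footprints were 19.7 and 25.7 RPKM, against 32.1 and 27.6 RPKM. Neither gene's groups overlapped, and the log2 differences were -0.20 for C1qa (limma, 95% interval -0.72 to 0.31, adjusted p = 0.861) and -0.39 for C1qb (-0.85 to 0.07, adjusted p = 0.557). C1qc footprints were 15.4 and 36.8 RPKM in the knockout, against 22.6 and 37.5 RPKM in the wild type. The groups overlapped, and animal 3 of each genotype was far above the other animal. The interval of the C1qc footprint difference, -1.39 to 0.83 on the log2 scale, leaves its direction unresolved.

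Because RPKM carry a length factor that differs between genes, the chains were compared with each other as RPM per kilobase of coding sequence. In total RNA, C1qa over C1qb was 1.28 and 1.36 in the knockout, against 1.20 and 1.12 in the wild type. This ratio did not overlap between genotypes, and an exact permutation test of 2 against 2 cannot give a two-sided p under 0.333. C1qa over C1qc was 1.47 and 1.62 in the knockout, against 1.79 and 1.42 in the wild type, which overlapped. In footprints C1qa over C1qc ranged much more, with 4.56 and 1.79 in the knockout, against 3.55 and 2.29 in the wild type. The order of the chains in every total RNA library was C1qa, then C1qb, then C1qc.

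Ctss (ENSMUSG00000038642, chr3:95526786-95556403, plus strand) encodes cathepsin S, a lysosomal cysteine protease that trims the invariant chain during antigen presentation by MHC class II. The 250 bases upstream of its RefSeq start (GRCm38.p6, chr3:95526536-95526785) are shown because Ctss is the other gene called by both tools, again with GAGGAA in capitals.
Ctss promoter: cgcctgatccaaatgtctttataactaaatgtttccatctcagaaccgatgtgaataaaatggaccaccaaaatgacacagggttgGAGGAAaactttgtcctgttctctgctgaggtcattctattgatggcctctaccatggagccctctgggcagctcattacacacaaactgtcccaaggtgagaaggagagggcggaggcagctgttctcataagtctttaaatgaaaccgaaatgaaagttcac

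Ctss total RNA was 41.6 and 43.8 RPKM in the knockout, against 64.1 and 60.2 RPKM in the wild type. The groups were well apart, and the knockout mean was 0.687 of the wild-type mean. Ctss fell by limma with a log2 difference of -0.53 (SE 0.09, adjusted p = 0.0373) and by limma-voom with one of -0.56 (adjusted p = 0.00245). The limma call held without wild type 3 and was lost without knockout 1 (adjusted p = 0.244), knockout 3 (0.122) or wild type 2 (0.0889). Ctss footprints were 173.2 and 132.6 RPKM in the knockout, against 225.1 and 197.9 RPKM in the wild type. Both knockout libraries were again the lower ones, with a log2 difference of -0.48 (95% interval -0.90 to -0.05) that was not called (limma adjusted p = 0.415).

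P2ry12 (ENSMUSG00000036353, chr3:59216272-59262871, minus strand) encodes the ADP receptor through which microglia extend their processes towards injured cells, and it marks unstimulated microglia. P2ry12 total RNA was 8.63 and 7.74 RPKM in the knockout, against 11.7 and 13.3 RPKM in the wild type. Its knockout mean, 0.652 of the wild-type mean, was as low relative to the wild type as that of C1qb, but the call differed between tools. The log2 difference was -0.56 by limma (SE 0.12, adjusted p = 0.0603), and P2ry12 fell by limma-voom (-0.64, adjusted p = 0.0121). That call was lost without knockout 1 (limma-voom adjusted p = 0.0945) or knockout 3 (0.173). P2ry12 footprints were 17.7 and 14.3 RPKM in the knockout, against 23.2 and 22.6 RPKM in the wild type, also without overlap. Their log2 difference was -0.50 with a 95% interval from -0.91 to -0.09, which was not called (limma adjusted p = 0.373). P2ry12 shares 9 exon bases with Med12l on the other strand, and whether the authors' counting used strand is not given in the sources used here.

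Csf1r (ENSMUSG00000024621, chromosome 18, 61100598 to 61132149, plus strand) encodes the receptor tyrosine kinase for CSF1 and IL34 on which microglial survival depends. Csf1r total RNA was 54.5 and 54.3 RPKM in the knockout, against 69.6 and 73.0 RPKM in the wild type. The libraries of a genotype lay close together, and the knockout mean was 0.763 of the wild-type mean. The log2 difference was -0.38 by limma (SE 0.09, adjusted p = 0.0709), and Csf1r fell by limma-voom (-0.41, adjusted p = 0.0203), a call lost without knockout 1 (limma-voom adjusted p = 0.249) or knockout 3 (0.165). Csf1r footprints were 77.7 and 99.97 RPKM in the knockout, against 117.6 and 118.9 RPKM in the wild type. The groups did not overlap, and the log2 difference of -0.42 (95% interval -0.82 to -0.02) was not called (limma adjusted p = 0.449). Csf1r shares 873 exon bases with Hmgxb3 on the opposite strand.

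Cx3cr1 (ENSMUSG00000052336, chr9:119901616-120069879, minus strand) encodes the receptor for fractalkine, a chemokine made by neurons. Cx3cr1 total RNA was 15.5 and 17.4 RPKM in the knockout, against 19.4 and 18.1 RPKM in the wild type. The groups did not overlap but were close, with a log2 difference of -0.18 (limma, 95% interval -0.45 to 0.08, adjusted p = 0.381). Cx3cr1 footprints ran the other way, with 20.0 and 21.9 RPKM in the knockout, against 16.4 and 19.0 RPKM in the wild type. Cx3cr1 was the 1 gene of the 9 whose footprints were higher in both knockout libraries, with a log2 difference of 0.23 (95% interval -0.15 to 0.62, limma adjusted p = 0.729). Cx3cr1 shares 78 exon bases with Gm33858.

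Trem2 and Tmem119 had the fewest reads of the 9 genes. Trem2 (ENSMUSG00000023992, chr17:48346401-48354147, plus strand) encodes a receptor for lipids and apolipoproteins that signals through the adaptor Tyrobp. Trem2 total RNA was 1.34 and 1.43 RPKM in the knockout, against 1.60 and 1.60 RPKM in the wild type, and the log2 difference was -0.13 by limma (adjusted p = 0.618) and -0.24 by limma-voom (95% interval -0.74 to 0.27). Its groups did not overlap. Trem2 footprints were 1.28 and 3.45 RPKM in the knockout, against 2.04 and 2.44 RPKM in the wild type, so that the knockout animals lay on either side of the wild type. Tmem119 (ENSMUSG00000054675, chr5:113793729-113800516, minus strand) encodes a membrane protein used to tell microglia from blood-derived macrophages. Tmem119 total RNA was 1.10 and 1.15 RPKM in the knockout, against 1.36 and 1.37 RPKM in the wild type, and the log2 difference was -0.15 by limma (adjusted p = 0.557) and -0.30 by limma-voom (95% interval -0.77 to 0.18). Its groups did not overlap either, at 170 and 198 reads in the knockout and 141 and 152 reads in the wild type. Tmem119 footprints were 0.464 and 1.53 RPKM in the knockout, against 0.793 and 1.56 RPKM in the wild type, where the difference between animals exceeded that between genotypes.

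Translational efficiency, the ratio of footprint to total RNA RPKM of 1 animal, was tested with a genotype by library kind interaction. Of the 9 genes 0 were called by limma or limma-voom. An unadjusted p under 0.05 was reached by 0 of 9, beside 550 of all 12089 genes by limma. By limma 0.0165% of all 12089 genes tested were called, and by limma-voom 0.00835% of those it tested. Cx3cr1 came closest, with a ratio of 1.29 and 1.26 in the knockout, against 0.843 and 1.05 in the wild type. Its groups did not overlap, and the log2 difference was 0.42 (95% interval -0.002 to 0.83, limma adjusted p = 0.997). For C1qa the ratio was 1.88 and 1.66 in the knockout, against 1.60 and 1.62 in the wild type, and for Ctss it was 4.16 and 3.02, against 3.51 and 3.29. The groups of C1qa did not overlap while those of Ctss did, and their log2 differences were 0.05 for C1qa (95% interval -0.42 to 0.52) and 0.05 for Ctss (-0.41 to 0.52). C1qb, P2ry12 and Csf1r had differences of 0.18, 0.06 and -0.04 with intervals up to 0.69 from 0, and all 3 overlapped between genotypes. The ratio of C1qc was 0.609 and 1.49 in the knockout, against 0.808 and 1.00 in the wild type, and its interval ran from -1.20 to 1.36. Both Tmem119 (0.421 and 1.33 in the knockout against 0.585 and 1.14 in the wild type) and Trem2 (0.955 and 2.42 in the knockout against 1.27 and 1.52 in the wild type) also overlapped.

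**Figure D2:**
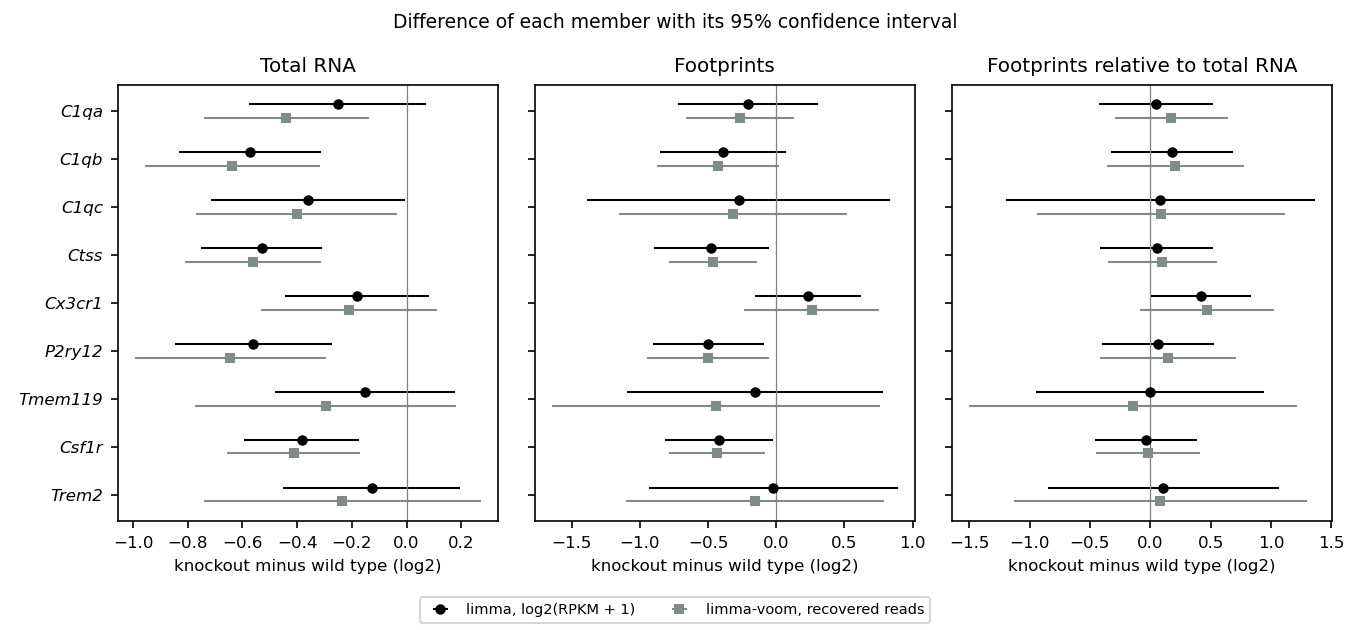
Log2 difference, knockout minus wild type (horizontal axis), of each gene in total RNA, in footprints and in footprints relative to total RNA, by limma on log2(RPKM + 1) (black circles) and by limma-voom on recovered reads (grey squares). Lines are 95% confidence intervals. In total RNA every point lies below 0, with C1qb, Ctss and P2ry12 the lowest, and in the right panel every interval by limma includes 0, that of Cx3cr1 from -0.002 to 0.83.

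The footprints of C1qc, Trem2 and Tmem119 differed between animals of a genotype. Knockout 3 over knockout 1 was 3.30 for Tmem119, 2.69 for Trem2 and 2.39 for C1qc, and wild type 3 over wild type 2 was 1.97 for Tmem119, 1.20 for Trem2 and 1.66 for C1qc. These 3 genes have the most GC-rich coding sequences of the 9, at 62.4% for Tmem119, 59.6% for Trem2 and 61.9% for C1qc, while C1qa at 58.8% differed little between animals, and P2ry12 with 43.9% and Ctss with 48.5% were lower in knockout 3 than in knockout 1. Tmem119, Trem2 and C1qc also had the fewest footprint reads of the 9, at 70 to 171, 139 to 277 and 220 to 390 per library. Neither GC content nor read number was tested as a cause. Over all genes the median log2 ratio of knockout 1 over knockout 3 footprints was 0.19, 0.06, -0.04, -0.14 and -0.25 in 5 equal bins of genes ordered by GC content, poorest first. The 3 genes lay well beyond that median. For wild type 2 over wild type 3 footprints the median was -0.003 in the bin poorest in GC and -0.095 in the richest. In total RNA, knockout minus wild type had a median of -0.12 in the bin poorest in GC and of 0.09 in the richest. When each library was centred along GC, an alternative added after the data had been seen, the C1qb difference was -0.65 and the call was kept (limma adjusted p = 0.0264), while that of Ctss was -0.46 and the call was lost (adjusted p = 0.0529). P2ry12 was then at -0.43 (adjusted p = 0.145) and Csf1r at -0.40 (adjusted p = 0.0550).

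**Figure D3:**
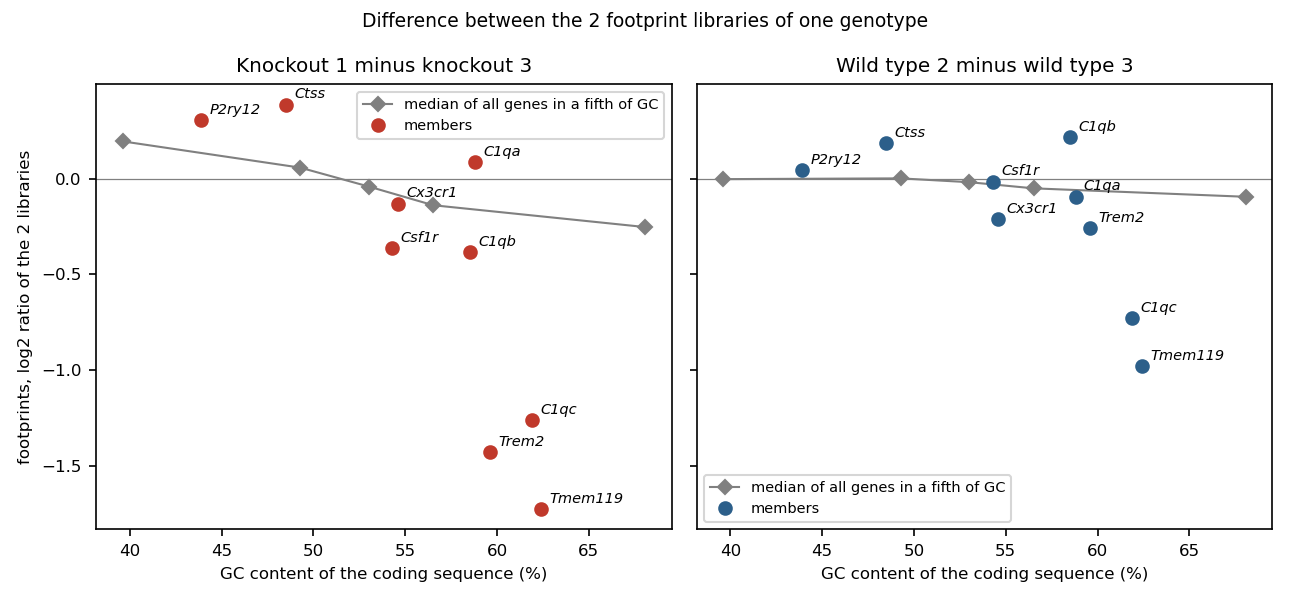
Log2 ratio of the footprint libraries of one genotype (vertical axis, knockout 1 over knockout 3 on the left and wild type 2 over wild type 3 on the right) against the GC content of the coding sequence in percent. Coloured points are the 9 genes and grey diamonds the medians of all genes in 5 equal bins of GC content. C1qc, Trem2 and Tmem119 lie lowest in the left panel, below the grey line.

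Levels were compared between the genes as footprint RPM per kilobase of coding sequence. Ctss was highest, with 84.2 ± 15.3 in the knockout against 115.8 ± 10.6 in the wild type (SD, n = 2 each, here and in the next sentences). C1qa followed with 32.3 ± 1.18 in the knockout against 39.2 ± 1.78 in the wild type, then C1qb with 26.8 ± 5.13 in the knockout against 35.0 ± 3.75 in the wild type. P2ry12 had 15.9 ± 2.29 in the knockout against 22.6 ± 0.504 in the wild type, and Csf1r had 15.0 ± 2.75 in the knockout against 19.8 ± 0.143 in the wild type. In the wild type these 5 genes kept their order in both libraries, since the ranges of neighbours did not overlap. C1qc, with 12.4 ± 7.27 in the knockout against 14.2 ± 4.93 in the wild type, and Cx3cr1, with 15.1 ± 1.06 in the knockout against 12.7 ± 1.30 in the wild type, overlapped in the wild type. Trem2, with 8.43 ± 5.50 in the knockout against 7.91 ± 0.982 in the wild type, and Tmem119, with 4.40 ± 3.35 in the knockout against 5.15 ± 2.38 in the wild type, were lowest. In wild-type total RNA Ctss, C1qa and C1qb again led, at 37.4, 26.7 and 23.1 RPM per kilobase, and Trem2 and Tmem119 were again last, at 6.23 and 6.54.

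Summed over the 9 genes, total RNA was 119.2 and 122.7 RPM in the knockout, against 164.2 and 168.4 RPM in the wild type, a ratio of means of 0.727. Summed footprints were 221.3 and 230.5 RPM in the knockout, against 293.0 and 286.2 RPM in the wild type, a ratio of 0.780. The sums did not overlap between genotypes in either kind of library, and animals of a genotype lay close together. The genes whose centred profile over the 8 libraries was most like the mean of the 9 were Fam214a, Dio2, Psmb10, Mag and Mtus2, with Pearson r between 0.977 and 0.991 among 9777 genes compared, as a description over libraries of only 4 animals. Of the 9 genes themselves Csf1r was closest to that mean (r = 0.961) and Cx3cr1 farthest from it (r = 0.216). Each of the 9 is part of that mean, which raises its r, so these values do not compare with those of the other genes. Dio2, which encodes the deiodinase that activates thyroid hormone, had 94.2 and 87.9 RPKM in knockout total RNA, against 183.1 and 179.8 RPKM in wild-type total RNA. Mag, a myelin gene, had 798.9 and 804.8 RPKM in the knockout, against 1023 and 1079 RPKM in the wild type.

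A further 20 genes typical of microglia were set beside the 9 in total RNA. Of the 15 that passed the filter of a mean of at least 1 RPKM, 1 was called lower and 0 higher by limma, beside 1.61% and 2.48% of all genes. By limma-voom 4 were called lower, beside 6.76% of all genes. Of the 15 differences 13 were negative, beside 53.3% of all. Both knockout libraries were below the wild type for 10 genes, beside 30.3% of all, and above it for 1. Cd53, with means of 0.937 RPKM in the knockout and 1.61 RPKM in the wild type, passed the filter only through the wild type. Laptm5, with 1.24 RPKM in the knockout and 0.927 RPKM in the wild type, passed it only through the knockout. The directions of Cd53 and Laptm5 are thus partly set by the filter. The median log2 difference of the 15 was -0.34, within a range from -0.76 to 0.22. Mertk, a receptor for engulfing dying cells that astroglia also express, fell to 18.2 and 20.0 RPKM in the knockout, against 34.6 and 28.8 RPKM in the wild type (-0.70, limma adjusted p = 0.0392), and the call was lost without knockout 1 (adjusted p = 0.220), knockout 3 (0.0968) or wild type 2 (0.0808). Gpr34, a lysophosphatidylserine receptor, had 4.81 and 4.24 RPKM in the knockout, against 9.76 and 7.09 RPKM in the wild type (-0.76, limma adjusted p = 0.0654; limma-voom 0.0364). Gpr34 and Sall1 were chosen after their values were seen. Sall1, a transcription factor that keeps microglial identity, overlapped between genotypes, with 4.53 and 5.13 RPKM in the knockout and 5.03 and 3.75 RPKM in the wild type. In footprints 16 of 17 of these genes were negative, beside 55.2% of all genes, with a median of -0.43. By limma 0 were called, beside 0.233% of all genes, and 6 had an unadjusted p under 0.05, beside 1294 of all 12447. Fcer1g, with footprint means of 0.710 RPKM in the knockout and 2.05 RPKM in the wild type, passed the filter only through the wild type. By limma-voom 1, Mertk, was called lower (adjusted p = 0.0480), where 1.64% of all genes were called.

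Among 14 genes of activated or disease-associated microglia 5 passed the filter in total RNA, with a median log2 difference of -0.15. Of these 5 differences 3 were negative, beside 53.3% of all genes, and 2 were positive. Both knockout libraries were below both wild-type ones for 2 genes, beside 30.3% of all, and above them for 2. By limma 1 was called lower and 0 higher, and by limma-voom 2 lower, where 1.61% and 6.76% of all genes were called lower. Gpnmb, a glycoprotein of phagocytes, fell to 5.94 and 5.61 RPKM in the knockout, against 11.5 and 11.8 RPKM in the wild type (-0.90, limma adjusted p = 0.0124). Its call was lost without knockout 1 (adjusted p = 0.0737) or knockout 3 (0.0687). Spp1, which encodes osteopontin, had 8.92 and 9.21 RPKM in the knockout, against 15.5 and 12.3 RPKM in the wild type (-0.56, limma adjusted p = 0.0828), and fell by limma-voom (adjusted p = 0.00221). Cd9 had 79.6 and 82.2 RPKM in the knockout, against 66.0 and 64.5 RPKM in the wild type (0.31, limma adjusted p = 0.112). Axl was also higher in both knockout libraries (0.12, limma adjusted p = 0.524). The summed level of the list overlapped, with 139.7 and 137.5 RPM in the knockout, against 144.9 and 137.2 RPM in the wild type. Of the genes of inflammatory activation, Tnf was listed at 0 in 7 of the 8 libraries, Il1b in 6 and Ccl3 in 3.

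Genes of border macrophages and blood leukocytes also lay lower in the knockout libraries. Of 14 such genes 5 passed the filter in total RNA, and 5 of 5 were below the wild type in both knockout libraries, beside 30.3% of all genes. By limma 0 were called and 3 had an unadjusted p under 0.05, beside 2810 of all 12690 genes. By limma-voom 3 were called lower, beside 6.76% of all genes. The median difference of the 5 was -0.77. Cd163, a haemoglobin scavenger receptor of border macrophages, had 0.739 and 0.821 RPKM in the knockout, against 1.77 and 2.75 RPKM in the wild type (-0.86, limma adjusted p = 0.0620). It passed the filter of 1 RPKM only through its wild-type values, so its lower place among the 5 is partly set by the filter. F13a1 (-0.77, limma adjusted p = 0.0935) and the neutrophil gene S100a9 (-0.89, limma adjusted p = 0.0927) likewise had knockout values below wild-type ones. Without wild type 2 the difference of S100a9 was -0.57, without wild type 3 it was -1.22 and called by limma (adjusted p = 0.0259), and without knockout 1 that of F13a1 was -0.51. Summed over the 9 of the 14 genes with recovered reads, the list had 11.8 and 13.5 RPM in knockout total RNA, against 23.1 and 23.5 RPM in wild-type total RNA, less than the sums of the microglial genes in every library. The T-cell gene Cd3e was listed at 0 in 6 of the 8 libraries, the B-cell gene Cd79a in 3, and the monocyte genes Ly6c2 and Plac8 in 4 and 2. The part of these cells in the result was not tested.

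**Figure D4:**
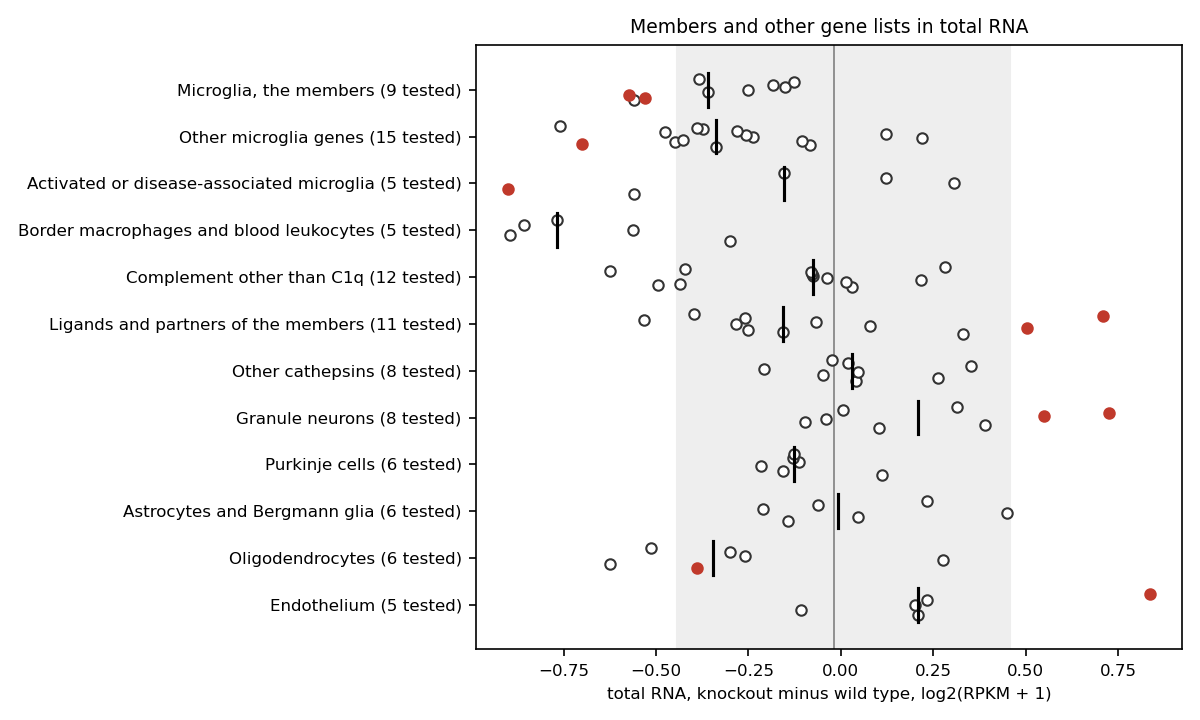
Log2 difference in total RNA, knockout minus wild type on log2(RPKM + 1) (horizontal axis), of each gene tested in 12 of the 14 lists. Circles are genes, filled where called by limma at an adjusted p under 0.05, black ticks are list medians, and the grey band runs from the 5th to the 95th percentile of all genes with their median as a line. The 9 microglial genes have a median of -0.36, other microglia genes one of -0.34 and border or blood cell genes one of -0.77.

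Of 19 complement genes other than C1q 12 were tested in total RNA, with a median difference of -0.08. By limma 0 were called and 3 had an unadjusted p under 0.05, beside 2810 of all 12690 genes tested. By limma-voom 1 was called lower, beside 6.76% of all genes. Serping1, the inhibitor of the C1 proteases, had a difference of -0.44 (limma adjusted p = 0.148), and Cfp, properdin, one of -0.42 (limma adjusted p = 0.161). Neither gene overlapped between genotypes.

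Among 13 ligands and partners of the 9 genes 11 were tested, with a median of -0.16, and 2 were called higher and 0 lower by limma, where 2.48% of all genes were called higher. By limma-voom 3 were called higher and 3 lower, beside 6.33% and 6.76% of all genes. The higher ones were Apoe, Nrros and Cst3. The lower ones were Il34, Clu (limma-voom adjusted p = 0.0176) and Tgfbr1 (limma-voom adjusted p = 0.0421). Apoe, an apolipoprotein made mainly by astrocytes and a ligand of TREM2, rose to 10047 and 9459 RPKM in the knockout, against 6598 and 7150 RPKM in the wild type (0.51, limma adjusted p = 0.0212). Nrros, which holds latent TGF-beta on microglia, rose to 7.09 and 5.99 RPKM in the knockout, against 3.35 and 3.87 RPKM in the wild type (0.71, limma adjusted p = 0.0470). The Apoe call held without wild type 3 but was lost without knockout 1 (adjusted p = 0.152), knockout 3 (0.0709) or wild type 2 (0.0505), and with quantile normalization its difference was 0.07 (adjusted p = 0.542). The call of Nrros was lost without any 1 library (0.0569 to 0.290). Of the ligands of CSF1R, Il34 had 1.10 and 1.32 RPKM in the knockout, against 2.20 and 2.19 RPKM in the wild type (-0.53, limma adjusted p = 0.0958; limma-voom 0.00606). Csf1 overlapped between genotypes (-0.16, limma adjusted p = 0.540), as did Cx3cl1, the ligand of CX3CR1 (-0.07, 95% interval -0.35 to 0.22). Tyrobp, the adaptor of TREM2, had 2.65 and 2.78 RPKM in the knockout, against 2.72 and 4.49 RPKM in the wild type, which overlapped. Cst3, a secreted inhibitor of cathepsins, had 64.7 and 68.8 RPKM in the knockout, against 50.5 and 55.3 RPKM in the wild type (0.33, limma adjusted p = 0.123, limma-voom adjusted p = 0.00921).

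The median difference of the 8 other cathepsin genes in total RNA was 0.03, and 0 of 8 were called by limma. An unadjusted p under 0.05 was reached by 2, beside 2810 of all 12690 genes. By limma-voom 1 was called higher, as were 6.33% of all genes. That gene, Ctsl, had 67.1 and 71.2 RPKM in the knockout, against 52.7 and 55.1 RPKM in the wild type (0.35, limma adjusted p = 0.0926; limma-voom 0.00891). Ctsz had a difference of 0.26 (limma adjusted p = 0.216) and Ctsh one of -0.21 (limma adjusted p = 0.409). Whether the difference of Ctss from the other cathepsins exceeds the spread was not tested.

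Other cell types of the cerebellum were set beside the microglial genes. Of all 12690 genes tested in total RNA 2810 had an unadjusted p under 0.05 by limma. Of 8 granule neuron genes 2 were called higher and 0 lower by limma (median 0.21), beside 2.48% of all genes called higher, and 4 were called higher by limma-voom (Fat2, Grin2c, Cbln1 and Cbln3), beside 6.33%. By limma the cadherin gene Fat2 rose with a difference of 0.55 (limma adjusted p = 0.0470) and the NMDA receptor gene Grin2c with one of 0.73 (limma adjusted p = 0.0491). Their summed total RNA was 7085 and 7059 RPM in the knockout, against 5691 and 6146 in the wild type. Of 6 oligodendrocyte genes 1 was called lower by limma (median -0.35), beside 1.61% of all genes, and 3 lower and 1 higher by limma-voom, the last being Cnp (0.26, adjusted p = 0.0332). The gene called by limma was Mag, which fell with a difference of -0.39 (limma adjusted p = 0.0438), and the sum was 3782 and 3602 RPM in the knockout, against 5742 and 4132 in the wild type. Among 6 endothelial genes 5 were tested and 1 was called higher by limma (median 0.21), Cldn5, a tight junction gene that rose with a difference of 0.84 (limma adjusted p = 0.0245). Without knockout 1 or knockout 3 the limma calls of Fat2, Grin2c, Mag and Cldn5 were lost (adjusted p 0.0706 to 0.267), without wild type 2 that of Cldn5 held, and without wild type 3 those of Fat2, Grin2c and Cldn5 held. By limma 0 of 6 Purkinje cell genes were called (median -0.13; Calb1 -0.21, Pcp2 -0.13, Car8 -0.16; 1 at an unadjusted p under 0.05 and 1 called by limma-voom), and 0 of 6 genes of astrocytes and Bergmann glia (median -0.01; Gfap 0.45 with an adjusted p of 0.0515, Aqp4 0.23, Gdf10 -0.21; 2 at an unadjusted p under 0.05 and 1 called by limma-voom). Of 6 choroid plexus genes 4 were tested, 0 called by limma and 4 by limma-voom, with a median of 2.31 (Kl 2.52, Aqp1 2.11, Clic6 1.05). Of 9 brainstem and spinal boundary genes 5 were tested and 0 called, with 0 at an unadjusted p under 0.05 and a median of -1.64 (Hoxb4 -2.30, Hoxa5 -1.77, Hoxb3 -0.98). All 5 were highest in wild type 2, so this median rests largely on 1 library. Hoxb4 had 0.316 and 0.284 RPKM in the knockout, against 27.6 RPKM in wild type 2 and 0.439 RPKM in wild type 3. Hoxb4 and Hoxb3 passed the filter only through wild type 2. The part of these shifts between tissues and cell types in the microglial differences was not tested.

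BMAL1 with its partner CLOCK binds the E-box CACGTG, and promoters of the 9 genes were searched for it and for GAGGAA on both strands in the 250 bases upstream of the RefSeq start (GRCm38.p6). Of the 9 genes 6 had an entry: C1qb, C1qc, Ctss, Cx3cr1, P2ry12 and Trem2. All 250 bases of the Cx3cr1 window and 151 bases of the C1qc window lie in annotated GENCODE M21 exons of those same genes. The E-box was found in the window of P2ry12 alone among these 6, starting 228 bases upstream, and in 6.02% of 32851 promoters. It is shown within 30 bases (chr3:59263196-59263225, minus strand), which lie in an annotated exon of Med12l on the opposite strand, with the E-box in capitals.
P2ry12 E-box: cccatgggttcaCACGTGatgacatcgcag
GAGGAA or its complement was found in C1qb (30 bases upstream), Ctss (164), C1qc (193) and Trem2 (40), and in 23.25% of all promoters. The letters do not overlap between the motifs, and a match says only that these letters are present. For the genes called by limma, C1qb and Ctss, the E-box was in neither window of 250 bases. Sequence outside the windows was not searched, and binding of BMAL1 was not tested.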

How the data were processed

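The authors deposited RPKM per gene and library and a table of translational efficiency, a ratio of footprint to total RNA, per the file headers. Of 50923 ratio values compared, 50923 were within 2% of footprint RPKM divided by total RNA RPKM in that animal. Per the labels' protocols, both libraries of an animal came from one lysate of frozen cerebellum treated with cycloheximide, footprints were cut with RNase I and selected at 28 to 34 nt, and ribosomal RNA was depleted. Bowtie, STAR, Cufflinks and mm10 are named in the submitters' processing notes; versions and roles are not given in the sources used here. Total RNA of knockout 2 and wild type 1 was not analysed here.

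Whole reads were recovered for 13880 genes from RPKM and the authors' mean read count, a geometric mean over 8 libraries: of 4392 low values 99.89% fell within 0.1 of a whole number. The factor between RPKM and reads varies by gene, so RPKM was compared only within a gene. Libraries of a group differed beyond sampling noise (chi-square per degree of freedom 12.6 to 40.8). Replicates are separate animals, per the labels' numbering and the design text, and p-values measure the spread between these animals.

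Differences are knockout minus wild type from limma 3.58.1 in R 4.3.3 with a variance trend on log2(RPKM + 1), over genes whose mean RPKM was 1 or more, and every adjusted p is Benjamini-Hochberg over all genes tested. Fold changes on this scale understate changes of genes with low RPKM. A gene with a mean under 1 RPKM in 1 genotype can pass the filter through the other. Limma-voom on recovered reads was an alternative, as were a pseudocount of 0.1, other filters, quantile normalization, one fit of all libraries, leaving out each library, and centring along coding GC (GENCODE M21). The main limma fits were run on simulated reads with 1 fixed spread, while limma-voom and the other alternatives were not. Called means an adjusted p under 0.05.

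The 9 genes and the 14 lists were chosen with earlier results of these data known. Of each other list, every called gene was named, and otherwise the 3 with the smallest p in total RNA; some such genes are not reported here. Numbers pair libraries only within an animal: deviations of total RNA and footprints correlated across 12088 genes at -0.004 in knockout and 0.259 in wild-type animals. Of the gene IDs, 21951 were found in GENCODE M21. Sequences come from RefSeq promoters.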

Additional observations from a re-analysis of the deposited data

How the results depend on the processing

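In total RNA 519 genes were called, against 26 with no filter, 798 with a minimum mean of 100 reads, 217 with all libraries in one fit, 1622 by limma-voom, 117 to 563 without 1 library, and by limma-voom 546 or 983 with knockout 1 or 3 left out and 1432 or 1871 with wild type 2 or 3 left out. In footprints 29 were called, against 17 with a pseudocount of 0.1, 1 with no filter, 57 with the read minimum, 201 by limma-voom, 315 with all libraries in one fit, 50 with GC centring and 1 to 6 without 1 library. In translational efficiency 2 were called, against 5 with a pseudocount of 0.1, 4 with no filter, 0 with quantile normalization, 1 by limma-voom, 0 without any 1 animal, 0 with the authors' ratio and 1 with GC centring. The animal as a replicate block left 1 call in translational efficiency and changed no call of the 9 genes. No paired analysis was possible between genotypes because the animals share only the number 3.

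In total RNA the 9 genes kept a negative difference under every alternative run. With no filter the calls of C1qb (adjusted p = 0.137) and Ctss (0.102) were lost, as they were with all libraries in one fit (0.153 each), and quantile normalization lost that of Ctss (0.0503). With the read minimum P2ry12 (0.0286) and Csf1r (0.0487) were called too. By limma-voom without 1 library the adjusted p was 0.00228 to 0.125 for C1qb, 0.000417 to 0.0858 for Ctss, 0.0580 to 0.491 for C1qa, 0.00516 to 0.173 for P2ry12 and 0.0205 to 0.249 for Csf1r. Signs turned without 1 library in footprints for C1qc (-0.88 to 0.33), Tmem119 (-0.41 to 0.24) and Trem2 (-0.50 to 0.46). They turned in translational efficiency for C1qa (-0.0117 to 0.105), C1qb (-0.0034 to 0.367), C1qc (-0.54 to 0.70), Ctss (-0.17 to 0.28), P2ry12 (-0.0434 to 0.168), Tmem119 (-0.26 to 0.37, and 0.0501 with quantile normalization and 0.0936 with GC centring), Csf1r (-0.22 to 0.15) and Trem2 (-0.35 to 0.56). Footprints of Tmem119 did not pass the filter without knockout 3 or without wild type 3. In total RNA, without 1 library, Hoxa5 ran from -4.07 to 0.52 (the value without wild type 2), and Cx3cl1 from -0.184 to 0.0493 (the value without knockout 3, where limma-voom gave 0.0288). The causes were not tested. Limma-voom without 1 library and GC centring were chosen after seeing the data. Without 1 library a group holds 1 animal, which is assumed to vary like the other group.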
